A study of Mus musculus with 27 samples.

Results

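The 10 genes listed as smooth muscle contractile markers are described here in C2C12, mouse myoblasts kept as a cell line. These cells join into multinucleated skeletal myotubes once serum is reduced. The genes are Acta2, Tagln, Tagln2, Cnn1, Cnn2, Mcam, Myh11, Myl9, Cald1 and Smtn, a list of smooth muscle markers and close relatives matched by symbol. They make up 10 of the 20446 genes in the count table. All cells were grown in 10% FBS, differentiated in 2% horse serum from about 90% confluence and exposed to 50% horse serum during 2 h; such a pulse sets the circadian clocks of cultured cells to a common phase. The groups are the 9 collection times of 12, 18, 24, 30, 36, 42, 48, 54 and 60 h after the pulse, with 3 libraries each, and as labelled they differ by time alone. No culture without the pulse is among these samples, so change after the pulse and change with further time in differentiation medium cannot be told apart. A single cell line was used, and the labels do not say whether the libraries of a time point came from separate cultures, so the p-values reflect no more than library-to-library spread, part or all of which may be technical.

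The 27 libraries held 15.2 to 26.6 M counts (median 20.9 M), and 12687 genes had enough reads to be tested, among them 9 of the 10 genes described here. Levels are given in CPM, counts scaled to a common library size with TMM factors, and differences on the log2 scale with their standard error from edgeR's quasi-likelihood fit. A gene is said to have passed where its Benjamini-Hochberg adjusted p over all 12687 genes was under 0.05. Because these are bulk cultures, more RNA of a gene per cell and more cells making it cannot be told apart.

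Smooth muscle contracts when calcium signalling leads to phosphorylation of the myosin regulatory light chain, which lets smooth muscle myosin pull on filaments of smooth muscle actin, while calponins, caldesmon, transgelin and smoothelin bind the actin filament and modulate or stabilise it. Many of these genes are activated by serum response factor (SRF), which binds the CArG box together with myocardin in smooth muscle or with myocardin-related transcription factors, whose nuclear entry is set by the pool of free actin. In skeletal muscle cultures Acta2 is known as a gene of myoblasts and early differentiation, and the same set is also a mark of myofibroblasts.

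The stretches before the RefSeq start sites (GRCm38.p6, the mm10 build) are shown for the 3 genes in which a CArG box or its near form was found, since SRF is the factor best known for these genes. Each is given from the base 250 before the start site to the base just before it, on the gene's own strand, and capitals mark a CArG box or a form of it in which 1 of the 6 inner bases is G or C. The Acta2 stretch lies at chr19:34255374-34255623 on the minus strand, the Myl9 stretch at chr2:156775214-156775463 on the plus strand and the Cnn2 stretch at chr10:79988350-79988599 on the plus strand.
Acta2: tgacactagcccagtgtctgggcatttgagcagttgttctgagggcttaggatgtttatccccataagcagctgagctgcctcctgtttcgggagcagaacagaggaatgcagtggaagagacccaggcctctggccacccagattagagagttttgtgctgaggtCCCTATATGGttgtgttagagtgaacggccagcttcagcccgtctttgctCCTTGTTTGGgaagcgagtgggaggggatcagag
Myl9: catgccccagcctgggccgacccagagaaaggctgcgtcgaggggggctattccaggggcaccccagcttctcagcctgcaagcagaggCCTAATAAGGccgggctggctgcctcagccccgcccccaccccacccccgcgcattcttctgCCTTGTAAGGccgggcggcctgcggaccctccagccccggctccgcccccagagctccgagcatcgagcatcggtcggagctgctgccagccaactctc
Cnn2: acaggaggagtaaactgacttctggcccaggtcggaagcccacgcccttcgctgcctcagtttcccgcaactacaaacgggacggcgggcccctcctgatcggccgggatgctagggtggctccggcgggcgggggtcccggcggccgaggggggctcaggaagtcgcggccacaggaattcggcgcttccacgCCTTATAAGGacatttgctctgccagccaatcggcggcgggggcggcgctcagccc
RefSeq promoter windows, which run to 50 bases after the start, were at hand for 8 of the 10 genes (9 windows, with 2 for Cald1), and not for Tagln and Myh11. A CArG box was in the windows of Cnn2, at -56 to -47 (CCTTATAAGG), and Myl9, at -161 to -152 (CCTAATAAGG), against 1.63% of all 32851 promoter windows of this length. The near form was in Acta2, at -84 to -75 (CCCTATATGG) and -34 to -25 (CCTTGTTTGG), and in Myl9, at -99 to -90 (CCTTGTAAGG), against 8.5% of all windows. The letters GGAATG, the core bound by TEAD factors, stood on either strand in 4 of the 9 windows, those of Acta2, Tagln2, Smtn and the first of Cald1, against 14.7% of all windows. Both strands were searched, none of these matches overlapped, and a match is a description of the letters.

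The genes sit on 8 chromosomes in mm10: Acta2 at chr19:34241090-34255590, Tagln2 at chr1:172500047-172507380, Cnn2 at chr10:79988584-79996062, Myl9 at chr2:156775420-156781658, Cald1 at chr6:34598500-34775473, Smtn at chr11:3517523-3540612 and Myh11 at chr16:14194535-14291372. Chromosome 9 holds 3 of them, Cnn1 at chr9:22099216-22109630, Mcam at chr9:44134469-44142727 and Tagln at chr9:45929619-45936058. Exons on the opposite strand overlap some members: for Tagln those of Pcsk7 over 108 bases and of the antisense gene Gm48529 over 1241 of its 1988 exonic bases, for Smtn those of Gm11946 over 714 of 4380, and for Mcam those of Gm10687 over 17. The strand setting of the counting is not given in the sources used here, so reads of these genes and of their antisense partners cannot be told apart there. Of the 50-base stretches in each gene's transcripts, 0.326% in Acta2 were shared with another gene, 0.565% in Tagln2 and 0.34% in Myh11, and 0 in the other 7. Reads of these genes could thus rarely be taken for those of a relative. The reverse is not covered for Myh11: its 26 shared stretches were shared with Myh9, which averaged 3525 CPM against 0.188 CPM for Myh11. Whether reads of Myh9 were counted for Myh11 was not tested.

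Per kilobase of exon, the mean level over the 27 libraries ran from 1749 CPM per kb for Acta2, smooth muscle alpha actin, through 409.9 for Tagln, 307 for Myl9, 204 for Cnn2, 144 for Tagln2, 66.1 for Cald1, 24.9 for Smtn, 15.3 for Cnn1 and 4.84 for Mcam to 0.0247 for Myh11. Acta2 stood alone at the top: its lowest library (1052 CPM per kb) was above the highest of Tagln (577). The ranges over libraries overlapped between neighbours from Tagln through Myl9 and Cnn2 to Tagln2, and again between Smtn and Cnn1 and between Cnn1 and Mcam. They did not overlap between Tagln2 and Cald1 or between Cald1 and Smtn. Together the 10 genes came to a mean of 5050 CPM at 12 h and 4768 CPM at 18 h, then 8021, 8200 and 7564 CPM at 36, 42 and 60 h.

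The actin of the set, Acta2, had 4289, 4708 and 3943 CPM at 60 h and 4159, 5349 and 4484 CPM at 36 h, against 2962, 3028 and 2564 CPM at 12 h. All libraries at 36 and 60 h were above all libraries at 12 h, while 60 h and 36 h overlapped. In time order from 12 to 60 h, the 9 means in CPM were 2852 ± 251, 2572 ± 269, 2982 ± 257, 3948 ± 318, 4664 ± 615, 4717 ± 377, 4172 ± 552, 4349 ± 479 and 4313 ± 383 (SD, n = 3). The level was lowest at 18 h and climbed between 24 and 36 h. The log2 difference was 0.60 ± 0.11 (adjusted p 0.000594) for 60 h against 12 h.

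Tagln encodes transgelin (SM22 alpha), a calponin-family protein that cross-links actin filaments. It had 950.3, 987 and 951 CPM at 60 h and 946, 953 and 1069 CPM at 36 h, against 531, 533 and 599 CPM at 12 h. The libraries at 12 h all lay below those at 36 and 60 h, but they were not the lowest of the course. Tagln had 411, 398 and 471 CPM at 18 h and 473, 441 and 491 CPM at 24 h, then 692, 705 and 793 CPM at 30 h. It had 1147, 1037 and 1131 CPM at 42 h, 1049, 1056 and 1023 CPM at 48 h and 1136, 995 and 1036 CPM at 54 h. The low point was thus at 18 and 24 h and the high stretch from 36 h on. Its relative Tagln2, found in many cell types, had 309.9, 308 and 343 CPM at 60 h and 247, 272 and 357 CPM at 36 h, against 284, 256 and 339 CPM at 12 h. These overlapped, and the means ran from 229 ± 30.2 CPM at 24 h to 361 ± 33.5 CPM at 54 h.

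Cnn1, the smooth muscle calponin, which binds actin and slows the myosin ATPase, had the largest difference of the 9 genes tested. It had 48.6, 56.7 and 44.9 CPM at 60 h and 53.2, 64.2 and 60.5 CPM at 36 h, against 16.6, 18.8 and 15.4 CPM at 12 h. At 24 h it had already left the 12 h range, with 27.2, 27.3 and 22.4 CPM at 24 h. Its 9 means from 12 to 60 h, in time order and in CPM, were 16.9 ± 1.75, 20.6 ± 2.78, 25.6 ± 2.8, 44.2 ± 4.4, 59.3 ± 5.59, 59.8 ± 1.98, 49.1 ± 7.49, 51.3 ± 4.26 and 50.1 ± 6.04 (SD, n = 3). The highest 12 h library was below the lowest 24 h library, and each 36 h library was above each 24 h library. Cnn2, a calponin also made outside muscle, had 526, 535 and 532 CPM at 60 h and 536, 585 and 595 CPM at 36 h, against 352, 356 and 358 CPM at 12 h. Its 12 h libraries lay within a narrow span under every later library.

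The light chain gene Myl9 encodes the regulatory subunit whose phosphorylation switches on smooth muscle and nonmuscle myosin. It had 379, 424 and 346 CPM at 60 h and 432, 557 and 494 CPM at 36 h, against 177, 189.8 and 156 CPM at 12 h. Its 9 means from 12 to 60 h were, in time order and in CPM, 174 ± 17, 230.0 ± 23.6, 295 ± 14, 417 ± 41.6, 494 ± 62.1, 433 ± 32.7, 396 ± 63.9, 385 ± 31.3 and 383 ± 39.5 (SD, n = 3). Myl9 reached its highest mean at 36 h, and all 3 of its libraries at 60 h were below all 3 at 36 h. Acta2, Tagln, Cnn1, Cnn2 and Mcam had their highest mean at 42 h. For Acta2, Cnn1 and Cnn2 the means at 36 and 42 h differed by less than their SD, and 42 h against 36 h was not tested.

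Myh11 encodes the smooth muscle myosin heavy chain, the member most restricted to mature smooth muscle. It had 108 reads in the 27 libraries together, 0 to 10 in each, or 0 to 0.394 CPM. The library with 0 reads, number 3 at 60 h, allows a level of up to 0.131 CPM at 3 counts, a limit that covers counting error only. Myh11 was not tested, because too few reads passed the filter on low counts, and its range at 36 and 60 h overlapped that at 12 h. Myocd, the smooth muscle and cardiac SRF cofactor myocardin, averaged 0.1 CPM and was not tested either.

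Caldesmon (Cald1), which in its long smooth muscle form holds actin in check and in its short form serves nonmuscle cells, had 905, 856 and 887 CPM at 60 h and 751, 848 and 839.6 CPM at 36 h, against 709, 684 and 729.6 CPM at 12 h. The 12 h libraries were below those of 36 and 60 h, by a narrow margin, but the lowest Cald1 library of the course was number 2 at 18 h (673 CPM). Smtn, smoothelin, a protein of contractile smooth muscle stress fibres, had 107, 95.8 and 106 CPM at 60 h and 96.2, 113 and 150.1 CPM at 36 h, against 84.3, 72.1 and 100.3 CPM at 12 h, and these overlapped. The counts are per gene, so that the smooth muscle and nonmuscle forms of Cald1 and Smtn were not separated. Mcam (CD146), an adhesion molecule on the surface of smooth muscle cells, pericytes and endothelium, had 18, 18.7 and 18.7 CPM at 60 h and 17.7, 17.3 and 17.4 CPM at 36 h, against 10.9, 10.6 and 11 CPM at 12 h. It stayed near the 12 h level at 24 h, with 10.9, 10.4 and 9.95 CPM at 24 h, and was at 22.5, 22.3 and 21.8 CPM at 42 h.

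**Figure D1:**
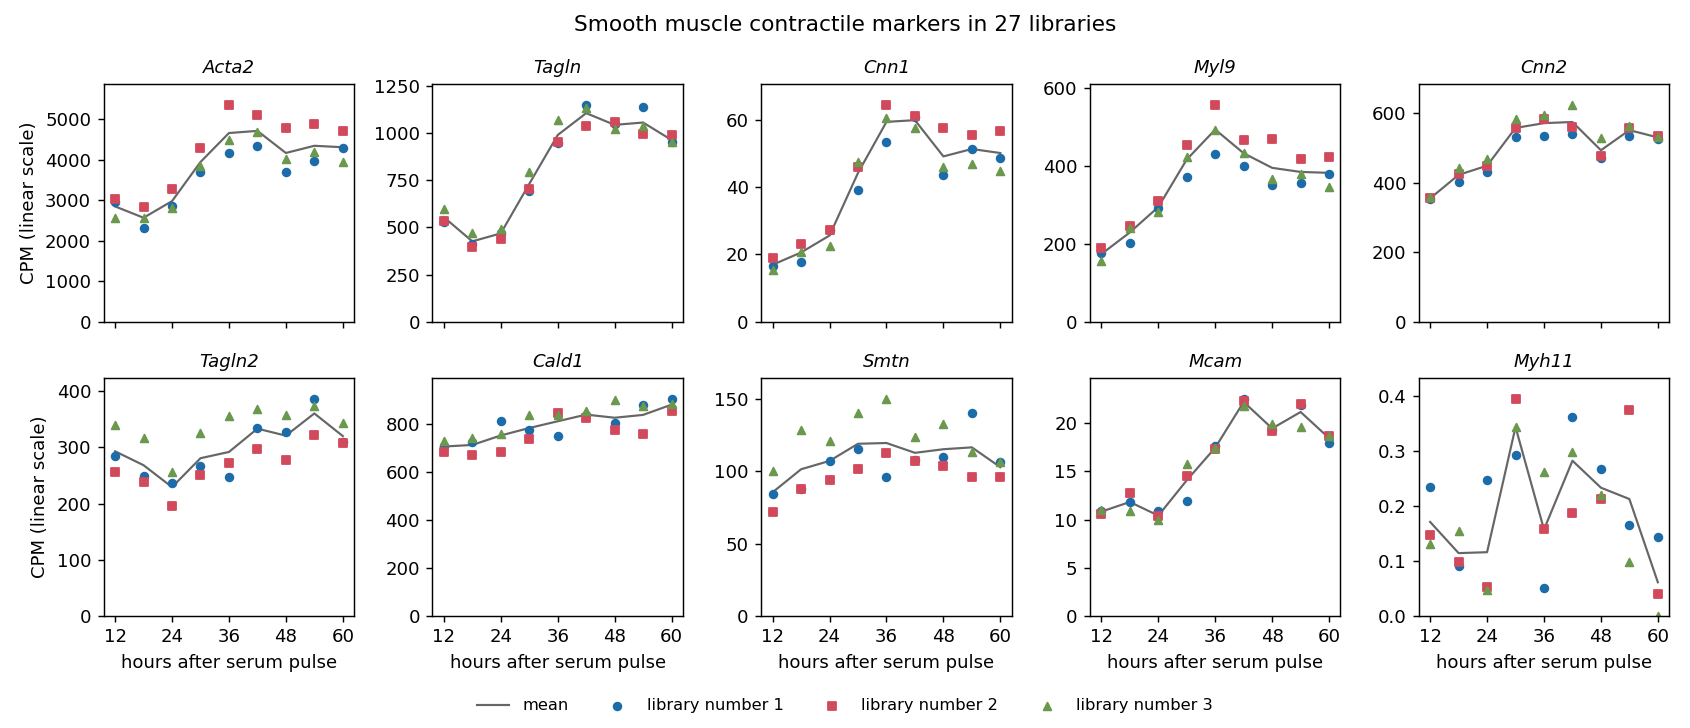
Levels of the 10 genes in CPM (linear axes from 0, each gene on its own scale) against hours after the serum pulse; each point is 1 library, marked by its number, and the line joins the means of 3 libraries. Acta2 and Tagln are lowest at 18 h, Cnn1 and Myl9 at 12 h, and Myh11 never exceeds 0.394 CPM.

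Over the first 24 h of the course, 36 h against 12 h, 6 of the 9 genes tested rose and 0 fell, where 9.3% of all genes tested rose and 6.75% fell. The log2 differences were 1.81 ± 0.13 (adjusted p 3.48e-10) for Cnn1, 1.5 ± 0.12 (adjusted p 2.55e-09) for Myl9, 0.84 ± 0.075 (adjusted p 2.15e-08) for Tagln, 0.71 ± 0.11 (adjusted p 8.58e-05) for Acta2, 0.69 ± 0.062 (adjusted p 2.07e-08) for Cnn2 and 0.69 ± 0.084 (adjusted p 2.11e-06) for Mcam. Smtn at 0.48 ± 0.18 (adjusted p 0.0646), Cald1 at 0.20 ± 0.075 (adjusted p 0.0746) and Tagln2 at -0.0057 ± 0.15 (adjusted p 0.988) did not pass. Smtn passed without library 3 of 12 h (0.61, adjusted p 0.0388), library 3 of 18 h (0.48, adjusted p 0.0463) or library 1 of 36 h (0.61, adjusted p 0.0306), and in DESeq2 (adjusted p 0.0442). With the replicate number as a block, Smtn (0.48 ± 0.11, adjusted p 0.000985) and Cald1 (0.20 ± 0.057, adjusted p 0.00743) passed as well. Same-numbered libraries of 36 and 12 h deviated together, with correlations of 0.113, 0.493 and 0.575 over genes. The median of the 9 was 0.69, against -0.0075 over all genes tested. In 7 of the 10 genes the 3 libraries at 36 h lay wholly above the 3 at 12 h (the 6 named and Cald1), which 14.5% of all genes tested did, while 13.7% lay wholly below.

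Over the last 24 h, 60 h against 36 h, 0 of the 9 passed in edgeR's test and 0 in DESeq2's, and 1, Myl9, had an unadjusted p under 0.05. Of all genes tested 0.497% rose and 0.363% fell. The log2 differences were -0.37 ± 0.12 (adjusted p 0.204) for Myl9, -0.24 ± 0.12 (adjusted p 0.661) for Cnn1 and between -0.22 (Smtn) and 0.13 (Tagln2) for the other 7. Myl9 did pass with the replicate number as a block, at -0.36 ± 0.066 (adjusted p 0.0014 in edgeR's test). Same-numbered libraries of 60 and 36 h had correlations of -0.056, 0.306 and 0.295 over genes. Without overlap between the 3 libraries each, Cald1 and Mcam were higher at 60 h than at 36 h and Cnn2 and Myl9 lower, that is 2 of 10 genes each way, where 6.43% and 6.46% of all genes tested were. The 36 h libraries serve in both comparisons. The difference between the intervals, the change from 12 to 36 h minus that from 36 to 60 h, was therefore tested directly. This comparison was added after the levels were seen. The difference passed for 6 of 9 genes, where 4.38% of all genes tested passed in this direction and 2.38% in the other. It was 2.05 ± 0.21 (adjusted p 4.39e-07) for Cnn1, 1.87 ± 0.19 (adjusted p 7.64e-07) for Myl9, 0.87 ± 0.13 (adjusted p 7.84e-05) for Tagln, 0.82 ± 0.19 (adjusted p 0.00915) for Acta2, 0.79 ± 0.10 (adjusted p 2.38e-05) for Cnn2 and 0.61 ± 0.14 (adjusted p 0.00838) for Mcam. It did not pass for Smtn at 0.70 ± 0.30 (adjusted p 0.212), Cald1 at 0.082 ± 0.13 (adjusted p 0.876) or Tagln2 at -0.14 ± 0.25 (adjusted p 0.899). Without library 2 of 36 h the difference for Acta2 was 0.60 (adjusted p 0.113), and without the 9 libraries numbered 2 that for Mcam was 0.62 (adjusted p 0.125).

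**Figure D2:**
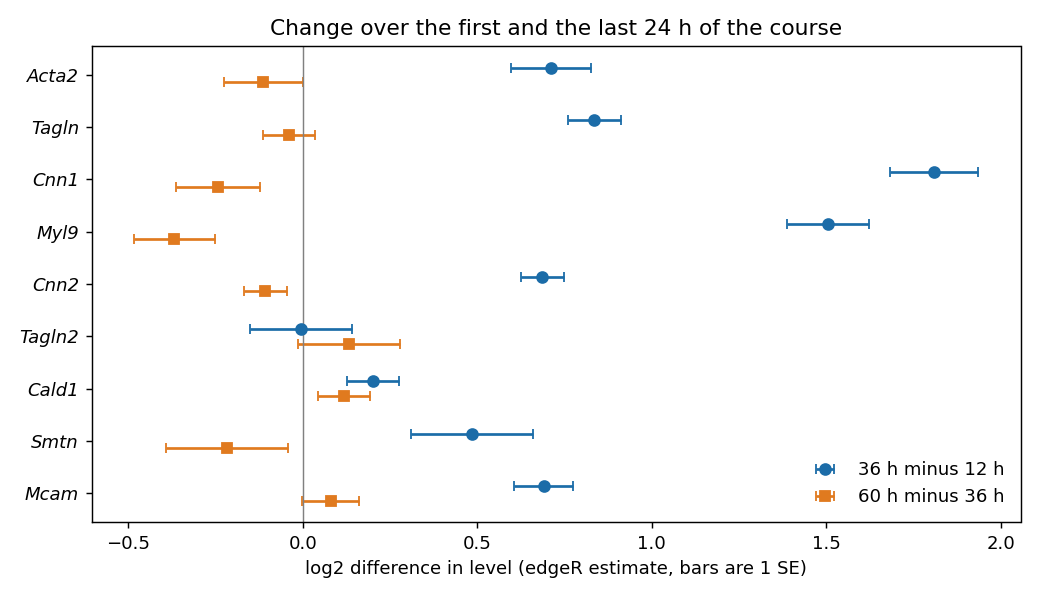
Log2 difference in level (edgeR estimate, bars are 1 SE) of the 9 genes tested for 36 h minus 12 h (circles) and 60 h minus 36 h (squares), which share the 36 h libraries. The circles of Cnn1 (1.81) and Myl9 (1.5) lie farthest right, and all squares lie between -0.37 and 0.13.

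Across the whole course, 60 h against 12 h, 7 of 9 genes rose and 0 fell, where 9.5% of all genes tested rose and 6.56% fell. Beyond Acta2 these were Cnn1 at 1.56 ± 0.13 (adjusted p 4.07e-09), Myl9 at 1.14 ± 0.12 (adjusted p 1.9e-07), Tagln at 0.80 ± 0.075 (adjusted p 4.73e-08), Mcam at 0.77 ± 0.084 (adjusted p 4e-07), Cnn2 at 0.58 ± 0.062 (adjusted p 3e-07) and Cald1 at 0.32 ± 0.075 (adjusted p 0.00419). Smtn at 0.27 ± 0.18 (adjusted p 0.373) and Tagln2 at 0.13 ± 0.15 (adjusted p 0.658) did not pass. In the 7 genes that rose the 60 h libraries lay wholly above those of 12 h, as in 16.7% of all genes tested, and 15.5% lay wholly below. A linear trend fitted with a 24 h wave to all 27 libraries was positive and passed for 8 of 9 genes, where 10.7% of all genes tested rose and 8.72% fell. Per 48 h it was 0.97 ± 0.23 (adjusted p 0.00277) for Myl9, 0.49 ± 0.11 (adjusted p 0.0017) for Cnn2, 0.41 ± 0.12 (adjusted p 0.0192) for Tagln2 and 0.32 ± 0.056 (adjusted p 0.000145) for Cald1, and for Smtn, which did not pass, 0.21 ± 0.14 (adjusted p 0.324). Without the 12 h libraries the trend of Myl9 was 0.44 (adjusted p 0.254) and that of Cnn2 0.20 (adjusted p 0.279), so that 6 passed. Both had their lowest mean at 12 h. Without the libraries numbered 2 the trend of Tagln2 was 0.37 (adjusted p 0.0715).

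When the first interval was divided, with comparisons chosen after the levels were seen, the genes parted. From 12 to 24 h, 3 of 9 rose and 1 fell, where 5.83% of all genes tested rose and 5.58% fell. For 24 h against 12 h the log2 difference was 0.76 ± 0.12 (adjusted p 6.34e-05) for Myl9, 0.60 ± 0.13 (adjusted p 0.00207) for Cnn1 and 0.34 ± 0.062 (adjusted p 0.00045) for Cnn2. Tagln fell, with -0.24 ± 0.075 (adjusted p 0.0373), a call that was lost without library 3 of 12 h (-0.19, adjusted p 0.16), without library 1 of 24 h (-0.26, adjusted p 0.0753) and without library 2 of 24 h (-0.20, adjusted p 0.144). Acta2 at 0.065 ± 0.11 (adjusted p 0.83), Mcam at -0.056 ± 0.086 (adjusted p 0.8) and Tagln2 at -0.35 ± 0.15 (adjusted p 0.14) did not pass. The libraries did not overlap for the 4 genes that passed and for Tagln2, which was lower (3 higher and 2 lower of 10, where 12.1% and 12.2% of all genes tested were). From 24 to 36 h, 6 of 9 rose and 0 fell, where 1.42% of all genes tested rose and 0.441% fell. For 36 h against 24 h the difference was 1.21 ± 0.12 (adjusted p 2.31e-06) for Cnn1, 1.08 ± 0.076 (adjusted p 7.84e-09) for Tagln, 0.75 ± 0.085 (adjusted p 1.25e-05) for Mcam, 0.74 ± 0.12 (adjusted p 0.000645) for Myl9, 0.65 ± 0.11 (adjusted p 0.00206) for Acta2 and 0.35 ± 0.062 (adjusted p 0.00206) for Cnn2. The libraries of these 6 genes lay wholly above those of 24 h, as in 7.49% of all genes tested, and 5.27% lay wholly below. Without the libraries numbered 2 the value for Cnn2 was 0.33 (adjusted p 0.134). Cnn1, Myl9 and Cnn2 thus rose in both parts, while Acta2, Tagln and Mcam rose from 24 h on.

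Change of any shape among the 9 time points passed for 7 of 9 genes, where 18.5% of all genes tested did. The distance between the highest and the lowest fitted time point was 1.82 on the log2 scale for Cnn1, 1.5 for Myl9, 1.37 for Tagln, 1.09 for Mcam, 0.88 for Acta2, 0.69 for Cnn2 and 0.32 for Cald1. The adjusted p of Cald1 was 0.0205, and it was 0.067 and 0.0753 without library 1 or 2 of 12 h, 0.0618 without library 2 of 18 h, and 0.0675 and 0.0603 without library 1 or 3 of 60 h. Without the 9 libraries numbered 2 it was 0.0735. Tagln2 (adjusted p 0.0536) and Smtn (adjusted p 0.494) did not pass. For Tagln2 the adjusted p was 0.0208 to 0.0499 without library 3 of 12, 18, 30 or 36 h or library 2 of 48 or 54 h, and DESeq2 gave 0.00735.

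The series was made to follow circadian control, and none of the 9 genes passed for a wave of 24 h: 0 did in edgeR's test, 0 in DESeq2's, and 0 had an unadjusted p under 0.05 (lowest p 0.221, Mcam). Of all genes tested 0.0552% passed. The fitted wave, from peak to trough, was largest for Mcam and Tagln, at 0.22 and 0.21 on the log2 scale, and smallest for Cald1 at 0.019. A term that alternates between successive collections, high at 12, 24, 36, 48 and 60 h and low at 18, 30, 42 and 54 h, passed for 0 of 9 genes with either tool. Of all genes tested 0.229% passed upwards and 0.544% downwards. Mcam (-0.18 ± 0.075) and Cnn2 (-0.14 ± 0.061) had an unadjusted p of 0.0208 and 0.0288 for the difference between the sets of collections.

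The genes also differed in which library of a time point was high. Library number 2 was above the mean of its time point at 9 of 9 time points for Acta2 (mean log2 deviation 0.15), Myl9 (0.14) and Cnn1 (0.13). For Tagln2, Smtn and Cald1 it was number 3 that lay above, at 9, 8 and 9 of 9 time points (0.18, 0.19 and 0.055), and number 2 that lay below (-0.15, -0.16 and -0.065). Cnn2 was highest in number 3 as well, at 9 of 9 time points (0.057). For Mcam the mean deviations ran from -0.014 to 0.02 over the 3 numbers, and for Tagln number 3 was above the mean at 6 of 9. The spread that numbers add to the time point means of Acta2, Smtn and Tagln2 is part of the standard errors given.

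**Figure D3:**
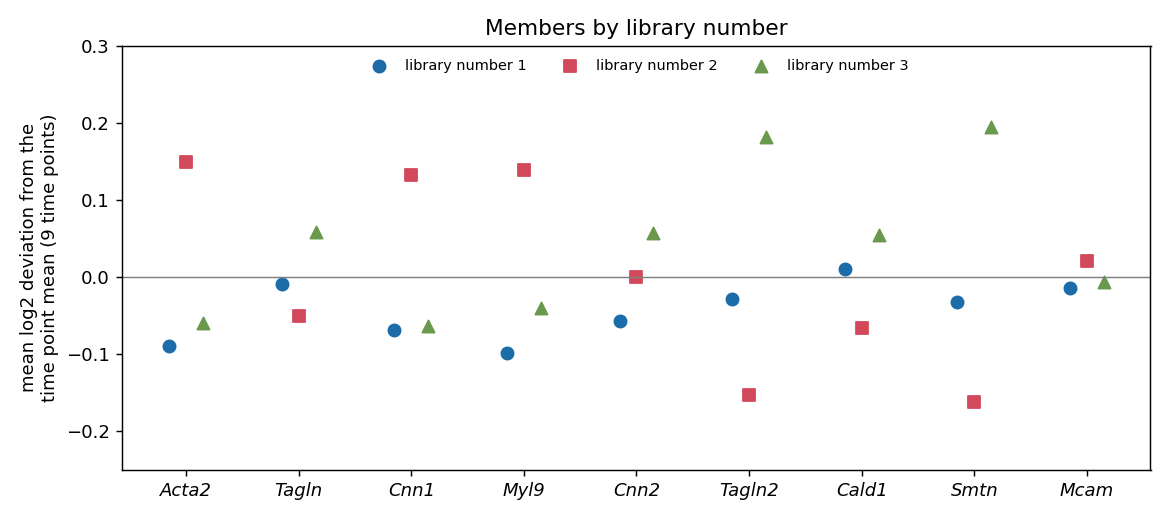
Mean deviation (log2) of each library number from its time point's mean over 9 time points, for the 9 genes tested; each point stands for 1 number. Number 2 is highest for Acta2, Cnn1 and Myl9, and number 3 for Tagln2, Smtn, Cald1 and Cnn2.

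Profiles were compared between members by the root-mean-square difference of log2 CPM over the 27 libraries, each gene centred on its mean. The closest pairs were Cnn2 and Cald1 (0.168), Tagln2 and Cald1 (0.177) and Smtn and Cald1 (0.182), which are genes of small change. Among the genes that rose from 12 to 36 h, the closest were Cnn2 and Acta2 (0.195), Tagln and Mcam (0.206), Mcam and Acta2 (0.221), Acta2 and Myl9 (0.226) and Cnn1 and Myl9 (0.249). Cnn1 was farthest from Tagln2 (0.606), Smtn (0.593) and Cald1 (0.581). These distances rest on the same libraries and are a description.

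The relatives of each member were set beside it. Among the actins, the smooth muscle gamma actin Actg2 had a log2 difference of 0.70 ± 0.092 (adjusted p 5.76e-06) for 36 h against 12 h, close to that of Acta2, and the cytoplasmic actins Actb and Actg1 had 0.47 ± 0.062 (adjusted p 5.83e-06) and 0.44 ± 0.11 (adjusted p 0.00571). Skeletal alpha actin, Acta1, had -0.17 ± 0.083 (adjusted p 0.191) and did not pass. The ratio of Acta2 to Acta1 per kilobase, in time order from 12 to 60 h, was 0.452, 0.401, 0.497, 0.669, 0.832, 0.849, 0.744, 0.723 and 0.715. Per kilobase of exon, Acta2 thus came near Acta1 at 36 and 42 h without reaching it. That order depends on the exon lengths used: in CPM, the mean at 42 h was 4717 for Acta2 and 3886 for Acta1. Acta2 held 40.8% of the summed level per kilobase of Acta1, Acta2, Actc1 and Actg2 at 42 h and 25.8% at 18 h.

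Cnn3, the calponin found in most cells, had 0.50 ± 0.056 (adjusted p 7.19e-07) for 36 h against 12 h, less than Cnn1 and Cnn2. The nonmuscle heavy chain Myh9, at 273 CPM per kb where Myh11 was at 0.0247, had 0.025 ± 0.11 (adjusted p 0.926), and the nonmuscle light chain Myl12a had 0.088 ± 0.1 (adjusted p 0.652). Neither passed, while the light chain Myl9 did. Myh14, another nonmuscle heavy chain, had 0.71 ± 0.18 (adjusted p 0.0089). Of the 14 relatives tested, 6 rose and 0 fell over this interval (median 0.28), where 9.3% of all genes tested rose and 6.75% fell. For 60 h against 36 h 0 of them passed, where 0.497% of all genes tested rose and 0.363% fell.

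**Figure D4:**
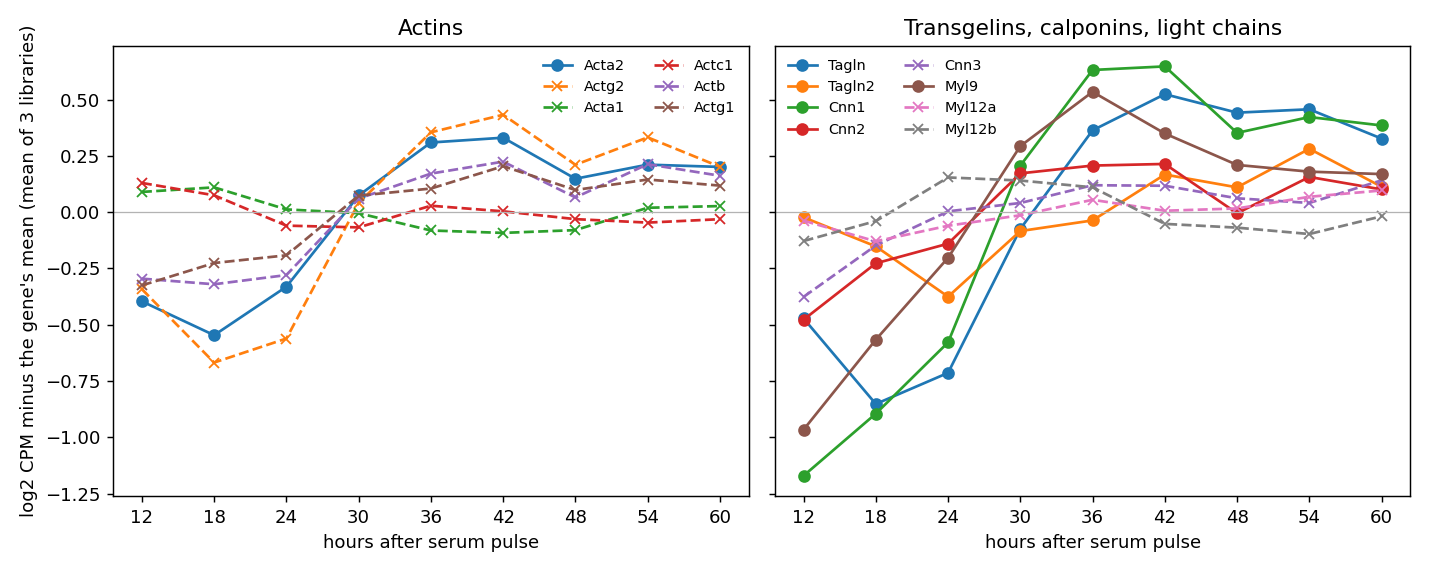
Mean log2 CPM of 3 libraries minus the gene's own mean, against hours after the pulse, for actins (left) and for transgelins, calponins and light chains (right); solid lines with circles are members, dashed lines with crosses their relatives. Acta2 and Actg2 run together and climb after 24 h, while Acta1 stays near 0.

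A list of 16 further smooth muscle genes was examined, 15 of them tested. For 36 h against 12 h, 9 rose and 0 fell (median 0.56), where 9.3% of all genes tested rose and 6.75% fell. For the linear trend also 9 rose and 0 fell, where 10.7% of all genes tested rose and 8.72% fell. Mylk, the kinase that phosphorylates the light chain, had 1.00 ± 0.15 (adjusted p 4.88e-05), and the LIM proteins Csrp1 and Csrp2 had 0.63 ± 0.11 (adjusted p 0.000146) and 0.37 ± 0.12 (adjusted p 0.0303). For 60 h against 36 h 1 of the 15 fell, Lmod1, the smooth muscle leiomodin that nucleates actin, with -0.48 ± 0.11 (adjusted p 0.0359), after a larger rise of 1.33 ± 0.11 (adjusted p 9.26e-09) for 36 h against 12 h, so that it was still higher at 60 h than at 12 h, at 0.85 ± 0.11 (adjusted p 7.68e-06). Lmod1 was named after its value was seen. For 60 h against 36 h 0.497% of all genes tested rose and 0.363% fell. Actg2 belongs both to this list and to the relatives.

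Of the genes for SRF and its cofactors, 11 of 12 were tested. For 36 h against 12 h 2 rose and 0 fell (median 0.25), where 9.3% of all genes tested rose and 6.75% fell. The 2 that rose were Srf at 0.65 ± 0.14 (adjusted p 0.00185) and Fhl2, a LIM cofactor, at 0.53 ± 0.11 (adjusted p 0.00115). The linear trend of Srf did not pass, at 0.41 ± 0.15 (adjusted p 0.0529) and passed in DESeq2 (adjusted p 0.0277). The myocardin-related factors did not pass, Mrtfa at 0.34 ± 0.41 (adjusted p 0.68) and Mrtfb at 0.21 ± 0.35 (adjusted p 0.769), with standard errors wide enough to hold a change as large as that of Srf. Fhl1 had 0.30 ± 0.15 (adjusted p 0.2) and passed for the trend, at 0.44 ± 0.12 (adjusted p 0.00978).

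TGF beta signalling drives Acta2 and Tagln in many cell types. Of its ligands, receptors and targets, 14 of 15 were tested. For 36 h against 12 h 6 rose and 0 fell (median 0.24), where 9.3% of all genes tested rose and 6.75% fell. The target Ccn2, a matricellular protein, had 1.09 ± 0.11 (adjusted p 6.02e-08). Among the ligands Tgfb2 had 0.92 ± 0.15 (adjusted p 0.000132), Tgfb3 0.24 ± 0.048 (adjusted p 0.000979) and Tgfb1 0.066 ± 0.34 (adjusted p 0.939). For the trend 5 rose and 1 fell, where 10.7% of all genes tested rose and 8.72% fell. The 1 that fell was Smad3, a receptor-activated transducer, at -0.54 ± 0.099 (adjusted p 0.000212).

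**Figure D5:**
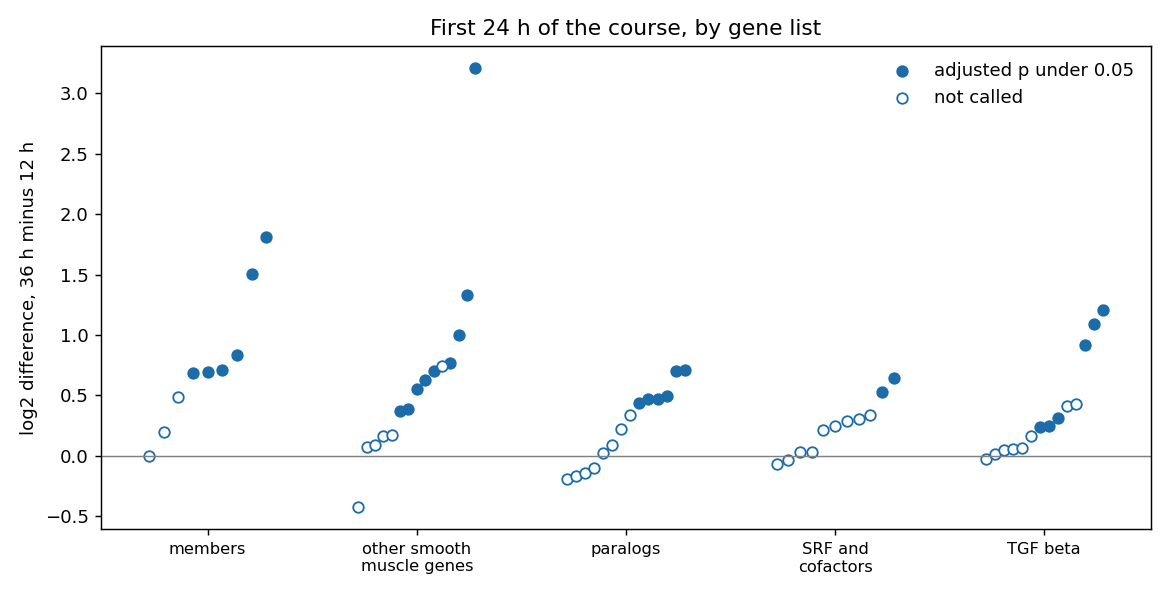
Log2 difference for 36 h minus 12 h of each tested gene in 5 lists; filled points had an adjusted p under 0.05. The 9 members lie between -0.0057 and 1.81, and the points of SRF and its cofactors between -0.068 and 0.65.

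By the same measure of likeness over 27 libraries, 11524 tested protein-coding genes averaging 1 CPM or more were candidates. The members and predicted genes were left out. Those nearest to Acta2 were Fkbp11 (0.121), Cst3 (0.124) and Actg2 (0.125), with a median over all candidates of 0.375. Nearest to Tagln were Actg2 (0.187), Adam12 (0.197) and Cbr2 (0.207; median 0.548), and nearest to Cnn1 were Cthrc1 (0.222), Atp8b1 (0.233) and Pawr (0.236; median 0.688). These genes share libraries and depth with the members.

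The labelled cell type was checked against markers. The 12 skeletal muscle markers summed to 15964 to 16631 CPM at 60 h, against 16849 to 17142 CPM at 12 h, so that the cultures held skeletal transcripts throughout. For 36 h against 12 h 1 of the 12 rose and 2 fell, where 9.3% of all genes tested rose and 6.75% fell. Myh3, embryonic myosin heavy chain, rose, at 0.30 ± 0.093 (adjusted p 0.0314). Myog, myogenin, at -0.45 ± 0.074 (adjusted p 0.000107) and Mymx, the fusion protein myomixer, at -0.49 ± 0.092 (adjusted p 0.000428) fell. The 9 fibroblast markers summed to 9948 to 11178 CPM at 60 h and 10918 to 11546 CPM at 36 h, against 8448 to 8808 CPM at 12 h. Of the 7 of them tested, 5 rose and 0 fell for 36 h against 12 h, beside the same 9.3% and 6.75% of all genes tested. Thy1 was at 0 in all 27 libraries, which allows up to 0.00522 CPM. The mean fibroblast sum was 11283 CPM at 24 h and 12050 CPM at 30 h, its highest, and 10123 CPM at 48 h. Most of it came from Col3a1, which averaged 7553 CPM over the 27 libraries, while Dpt averaged 1.1 CPM and Lum 0.116 CPM. For 36 h against 24 h, where 6 of 9 members rose, 0 of the 7 fibroblast markers rose and 0 fell (median -0.081). Of all genes tested 1.42% rose and 0.441% fell over that interval. The linear trend with all libraries rose for 3 of the 7 fibroblast markers and fell for 0 (median 0.30), where 10.7% of all genes tested rose and 8.72% fell. Those 3 were Col1a1 at 0.94 (adjusted p 0.000543), Fap at 1.25 (adjusted p 0.0314) and S100a4 at 0.37 (adjusted p 0.039). Without the 12 h libraries the trend of Dpt was -1.37 (adjusted p 0.00141) and that of Col3a1 -0.45 (adjusted p 0.000461), both downwards. Pdgfra was at -0.41 (adjusted p 0.0135). Fap at 0.88 (adjusted p 0.33) and S100a4 at 0.18 (adjusted p 0.572) stayed upwards and no longer passed. Thus the fibroblast markers did not share a direction. Dpt and Col3a1 were named after their values were seen.

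The 8 pericyte markers summed to 532 to 636 CPM at 60 h, against 358 to 530 CPM at 12 h, with Higd1b at 0 in all libraries. Most of this sum came from Pdgfrb, Notch3 and Cspg4, which averaged 370, 91.1 and 81.4 CPM over the 27 libraries. Rgs5 and Kcnj8 averaged 0.0688 and 0.013 CPM, and Notch3 is also among the reserve cell markers. Of the 5 pericyte markers tested 1 rose for 36 h against 12 h, the receptor Pdgfrb at 0.53 ± 0.12 (adjusted p 0.00235). Of all genes tested 9.3% rose and 6.75% fell over that interval. The 8 endothelial markers summed to 3.33 to 3.78 CPM at 60 h, against 4.05 to 4.96 CPM at 12 h, with Emcn at 0. The 6 immune markers summed to 1.05 to 1.44 CPM at 60 h, against 1.43 to 1.68 CPM at 12 h, with 2 of them at 0. Of the 7 myoblast and reserve cell markers 2 rose and 1 fell for 36 h against 12 h, beside the same 9.3% and 6.75% of all genes tested. The 1 that fell was the stem cell antigen Cd34, at -0.84 ± 0.092 (adjusted p 4.84e-07).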

How the data were processed

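Libraries were stranded and made from total RNA depleted of ribosomal RNA, per the labels' protocols. The deposited values are raw, unscaled counts of reads for 20446 genes, in a single table with 27 library columns. The submitters' processing notes list Trim Galore 0.4.0, cutadapt 1.9.1, featureCounts and the mm10 build. Neither aligner nor gene annotation nor counting options are named there (not given in the sources used here). Gene names, positions and exon lengths came from GENCODE M21, which matched 20318 genes.

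Libraries were grouped by the time point in their labels. filterByExpr (minimum count 10) kept 12687 genes and left out 7759. Scaling was by TMM, and log2 CPM for profiles used a prior count of 2. Tests were edgeR quasi-likelihood F tests on all 27 libraries (R 4.3.3, edgeR 4.0.16), with time as a factor for comparisons, and with a linear term (per 48 h) and a 24 h cosine and sine for trend and wave. The alternation term was added to that model. Scripts were tested on simulated data. Within each time point every pair of libraries differed beyond sampling noise (lowest chi-square per degree of freedom 5.63).

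The members and lists were chosen with earlier results of these data known. Comparisons of 24 h with 12 h, of 36 h with 24 h and between the intervals were added after the levels were seen. Named were all members, fixed regulators and relatives, and up to 4 genes per list with the smallest p for the trend; some genes and a list are not reported here. Alternatives were DESeq2 1.42.0, median of ratios scaling, other filters, other thresholds, libraries or times left out, periods of 20 and 28 h, a quadratic term, the 6 libraries of a comparison alone and the replicate number as a block.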

Additional observations from a re-analysis of the deposited data

How the results depend on the processing

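With each library left out in turn, the number of members that passed was 6 to 7 rising for 36 h against 12 h (6 with all), 7 for 60 h against 12 h, 6 for 36 h against 24 h, 3 rising and 0 to 1 falling for 24 h against 12 h, 5 to 6 for the difference between the intervals, 8 for the linear trend and 6 to 8 for change of any shape. It was 0 each time for 60 h against 36 h, the 24 h wave and the alternation. The 1 member that fell for 24 h against 12 h, Tagln, became 0 with no filter on low counts, 0 without the libraries numbered 2 and 0 at an adjusted p under 0.01. The cause was not tested, other than that the stricter threshold and the smaller number of libraries are part of those settings. No member estimate that passed changed direction in any alternative run: 3116 estimates kept their side of the threshold, 22 passed newly and 21 no longer passed. Without the 12 h libraries the trend of Pdgfra, a fibroblast marker, was -0.41 (adjusted p 0.0135), opposite in sign to that with all libraries, where it did not pass, and the cause was not tested. The alternation could not be fitted without a filter.

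Libraries sharing a number deviated together from their time point means: the correlation over genes was above 0.1 for 91 of 108 same-number pairs (lowest -0.056, for 60 h and 12 h 0.017, 0.33 and 0.32, for 36 h and 12 h all above 0.1), and 26 of 27 libraries correlated best with their own number. That is a hint from the data, not the design, and over the whole course does not show that numbers pair the libraries. With the replicate number as a block, 2 members fell for 24 h against 12 h (Tagln and Tagln2) and 4 rose, 1 fell for 60 h against 36 h (Myl9, -0.36, adjusted p 0.0014), 8 rose for 36 h against 12 h and for 60 h against 12 h, 7 for 36 h against 24 h, 7 passed for the difference between the intervals, 9 for change of any shape and 8 for the trend. Calls over all genes tested grew too: with the block 2031 rose for 36 h against 12 h (1180 without it), 2053 for 60 h against 12 h (1205) and 580 for 36 h against 24 h (180), and 5158 passed for change of any shape (2345), which leaving out 12 h moved to 1197. For 24 h against 12 h 1586 rose and 1446 fell with the block (740 and 708 without it). The difference between the intervals passed upwards for 1165 and downwards for 828 (556 and 302). The trend rose for 2011 and fell for 1883 (1360 and 1106). For 60 h against 36 h the counts over all genes were 11 to 198 rising (63 with all libraries) and 6 to 197 falling (46) over the alternatives. Depth limits Myh11, which with no filter had an adjusted p of 0.255 for change of any shape and 0.294 for 60 h against 12 h.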
